A study of Mus musculus with 14 samples.

Results

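The libraries described here are the 4 poly A mRNA libraries of wild type bone marrow derived macrophages, called WT 1, WT 2, WT 3 and WT 4, out of 14 libraries in the series. They were chosen by their labels alone. The mice were C57BL/6 and carried the floxed ELAVL1f/f allele without a Cre recombinase, so "wild type" here means an unrecombined floxed allele. The other libraries are 4 mRNA libraries from cells that also carry LysM-Cre, small RNA libraries and AGO2 PAR-CLIP libraries, and none of them was used here. Marrow was flushed from femur and tibia and grown untreated with 20% medium from L929 cells, for 6 days according to the growth protocol and for 7 days according to the series design text. That text also calls the 4 mRNA libraries of a genotype biological repeats, but nothing ties a library to an animal or a day. No contrast was tested. Values are given per library, and their spread is that between these 4 libraries.

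Macrophages are phagocytes that take up and digest dead cells, microbes and lipoproteins, so their endosomes and lysosomes, iron stores and lipid carriers are central to their work. In culture they are grown from marrow progenitors by CSF1, a growth factor that L929 fibroblasts secrete into their medium, and that acts through the receptor encoded by Csf1r. Their identity is known to rest on transcription factors such as PU.1, encoded by Spi1, together with members of the C/EBP, IRF, MAF and MiT families.

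For each of 21444 Ensembl genes the deposited table gives a read count and an RPKM, the reads per kilobase of gene scaled to the mapped reads of the library. Total counts were 14585778, 11192104, 24681273 and 24181994 in WT 1 to 4. A gene counts as expressed below when its mean RPKM over the 4 libraries was at least 1, which held for 11702 of 21444 genes (54.6%). Counting error was small. The exact 95% binomial interval of a share of counts printed for a single library was at most 0.0145 percentage points to either side, which covers counting error only. A count of 0 allows up to 3 counts, or 0.206, 0.268, 0.122 and 0.124 CPM in WT 1 to 4. WT 3 and WT 4 resembled each other more than any other pair. Over the 11702 expressed genes the Pearson correlation of log2(RPKM + 0.1) was 0.982 for WT 3 with WT 4, 0.940 for WT 1 with WT 2 and between 0.879 and 0.906 for the 4 mixed pairs, across genes, which are not independent replicates. Y-linked genes also set the pairs apart. Ddx3y, an RNA helicase gene of the Y chromosome, had 0 and 0 RPKM in WT 3 and 4, against 8.91 and 5.57 RPKM in WT 1 and 2. Eif2s3y, another Y-linked gene, had 0 and 0 RPKM in WT 3 and 4, against 5.09 and 4.50 RPKM in WT 1 and 2. Below, a gene is called higher in WT 3 and 4 where both lay above both WT 1 and WT 2, which held for 4006 of the 11702 expressed genes (34.2%), and lower where both lay below, which held for 3702 genes (31.6%). These are descriptions of libraries, with no test. The labels name no sex and no batch, so the sex of the cells and any other difference between these pairs of libraries cannot be told apart. Elavl1, which carries the floxed allele and encodes the RNA-binding protein HuR, had 11.99, 10.9, 11.5 and 11.9 RPKM in WT 1 to 4, one of the narrower spreads in the table.

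All 5 marker genes used to check the cell type were present in every library, 4 of them among the 11 highest genes. Fth1, the heavy chain of the iron store ferritin, had 13155, 23842, 18948 and 20027 RPKM in WT 1 to 4, a mean of 18993 ± 4422 (SD, n = 4), and ranked first of all genes. Apoe, the lipid carrier apolipoprotein E, had 10406, 15641, 8070 and 9829 RPKM and ranked 3. WT 2 held the highest level of both genes. Lyz2, the bacteriolytic enzyme lysozyme M, had 6773, 7098, 10666 and 9414 RPKM and ranked 4, with WT 3 and WT 4 above both other libraries. Psap, the precursor of the saposins that activate sphingolipid hydrolases, had 1543, 4015, 2889 and 3270 RPKM and ranked 11. WT 1 held the least Psap. Csf1r, the receptor for CSF1, had 128, 252, 162 and 184 RPKM, a mean of 181 ± 52.4 (SD, n = 4), and ranked 281. WT 1 was again the lowest and WT 2 the highest, and the library pairs overlapped. By share of counts, which is not divided by gene length, Csf1r ranked 26 at a mean of 0.241%.

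A longer list of macrophage identity genes was chosen with earlier results of these data known, so it is no independent check of the cell type. All 21 of the 21 genes found in the table were expressed, beside 54.6% of all genes, and their median level was 235 RPKM, beside a median of 1.53 RPKM over all 21444 genes. The list held 14 genes of at least 100 RPKM, a level reached by 2.66% of all genes. Tyrobp, the signalling adaptor DAP12, had 942, 1279, 822 and 831 RPKM. Laptm5, a lysosomal membrane protein of blood cells, had 841, 779, 511 and 606 RPKM. Both were lower in WT 3 and 4 than in WT 1 and 2. Mpeg1, the pore-forming protein perforin-2, ran the other way, with 952 and 841 RPKM in WT 3 and 4, against 338 and 346 RPKM in WT 1 and 2. Adgre1, which encodes the antigen F4/80 and was picked after its value was seen, had 322, 212, 258 and 242 RPKM with overlapping pairs. At the low end stood Cd33, a sialic acid binding receptor, at 6.71 ± 2.44 RPKM (SD, n = 4) and Cd163, the haemoglobin scavenger receptor, at 1.47 ± 0.459 RPKM. Both were picked for their low place in the list. Levels in bulk RNA cannot tell fewer cells of a type from less RNA per cell.

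Promoter sequences are shown for the identity genes that hold the word GAGGAAG, or CTTCCTC on the other strand, in the 150 bases before their start site, because the word contains the GGAA core bound by ETS factors such as PU.1 and the gene of that factor is the highest lineage factor in these libraries. RefSeq promoters of GRCm38.p6 were matched by symbol for 12405 genes of the table and for 17 of the 21 identity genes. The word stood in the window of 5 of those 17 genes (29.4%), of 860 of all 12405 genes (6.93%) and of 20 of the 250 highest genes (8%). A match is only a description of letters, and no binding was measured. Each window below runs 5′ to 3′ on the gene's strand, with the word in capitals.
Laptm5 (chr4:130913166-130913315, plus strand): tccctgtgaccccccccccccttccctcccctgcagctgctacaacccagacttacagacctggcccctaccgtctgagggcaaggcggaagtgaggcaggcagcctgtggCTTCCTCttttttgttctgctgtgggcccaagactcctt
Trem2 (chr17:48346251-48346400, plus strand): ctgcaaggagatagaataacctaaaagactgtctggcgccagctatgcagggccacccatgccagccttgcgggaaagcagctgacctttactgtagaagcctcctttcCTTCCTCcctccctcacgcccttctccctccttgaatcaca
Mrc1 (chr2:14229264-14229413, plus strand): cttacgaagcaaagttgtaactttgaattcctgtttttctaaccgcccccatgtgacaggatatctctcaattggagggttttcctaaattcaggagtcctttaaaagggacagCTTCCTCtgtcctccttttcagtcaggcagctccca
Itgam (chr7:128062490-128062639, plus strand): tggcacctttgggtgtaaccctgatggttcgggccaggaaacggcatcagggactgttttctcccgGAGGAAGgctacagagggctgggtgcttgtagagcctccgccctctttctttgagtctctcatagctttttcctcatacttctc
Fcgr1 (chr3:96293970-96294119, minus strand): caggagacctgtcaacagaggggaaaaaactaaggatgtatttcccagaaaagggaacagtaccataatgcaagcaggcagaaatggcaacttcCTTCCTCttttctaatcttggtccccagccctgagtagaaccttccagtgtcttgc
The word lay between 36 and 84 bases before the start site in these genes. Their levels spanned more than a decade. Laptm5 is given above. Trem2, a receptor for lipids and apoptotic cells, had 90.5, 263, 189.9 and 196 RPKM. Mrc1, the mannose receptor CD206, had 51.1, 65.3, 104 and 102 RPKM and was higher in WT 3 and 4 than in WT 1 and 2. Itgam, the integrin chain CD11b, had 99.7, 63.5, 77.4 and 67.5 RPKM. Fcgr1, the high affinity IgG receptor CD64, had 39.98, 45.1, 39.7 and 45.8 RPKM, the narrowest spread of the 5.

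Among the 25 genes of highest mean RPKM, those of protein coding biotype were led by Fth1, Apoe and Lyz2. They also held genes of lysosomal proteolysis and complement. By RefSeq biotype 17 of the 25 were protein coding and 2 were pseudogenes, 4 had no symbol and 2 had a symbol absent from the RefSeq table. The pseudogenes were Gm6977, ranked 5 with 4422, 9416, 9131 and 7268.5 RPKM, and Gm9843, ranked 23 at a mean of 1275 RPKM. After Fth1, Apoe and Lyz2, the highest genes of protein coding biotype were Ftl1, the ferritin light chain, with 4437, 7654, 3191 and 3483 RPKM, and Ctsb, the cysteine protease cathepsin B, with 2952, 4529, 5478 and 5098 RPKM. The mitochondrial gene mt-Co1, which also encodes a protein but is absent from the RefSeq table, ranked 7, above both. Ftl1 was lower and Ctsb higher in WT 3 and 4 than in WT 1 and 2. Gpnmb, a glycoprotein of lysosomal membranes, had 827, 2484, 4377 and 4134 RPKM and the widest range of the 25 genes, with WT 1 far below the rest. Ctsd, the aspartic protease cathepsin D, had 1742, 2981, 2729 and 2926 RPKM, and Ctsz, cathepsin Z, had 1706, 1993, 1097 and 1082 RPKM. B2m, the light chain of MHC class I, had 1566, 1779, 2399 and 3140 RPKM. Itm2b, a widely expressed membrane protein, had 1785, 2133, 1677 and 1650 RPKM, among the steadier of these genes.

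The complement genes in that group encode the recognition molecule C1q, which macrophages secrete. C1qc had 1732, 2382, 1061 and 1223 RPKM and C1qb had 1515, 1776, 1432 and 1640 RPKM. C1qa, ranked 62, had 645, 858, 494 and 707 RPKM. C1qc was lower in WT 3 and 4 than in WT 1 and 2, while the pairs overlapped for C1qb and C1qa. Actb, cytoplasmic actin, had 2302, 2057, 1690 and 1616 RPKM, Pfn1, the actin monomer binding protein profilin 1, had 2152, 1657, 822 and 961 RPKM, and both were lower in WT 3 and 4. Lgals1, a galactoside binding lectin, had 1352, 1019, 1083 and 1536 RPKM with WT 4 highest, and Fcer1g, the signalling chain of several Fc receptors, had 1612, 1031, 1129 and 1209 RPKM with WT 1 highest.

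**Figure D1:**
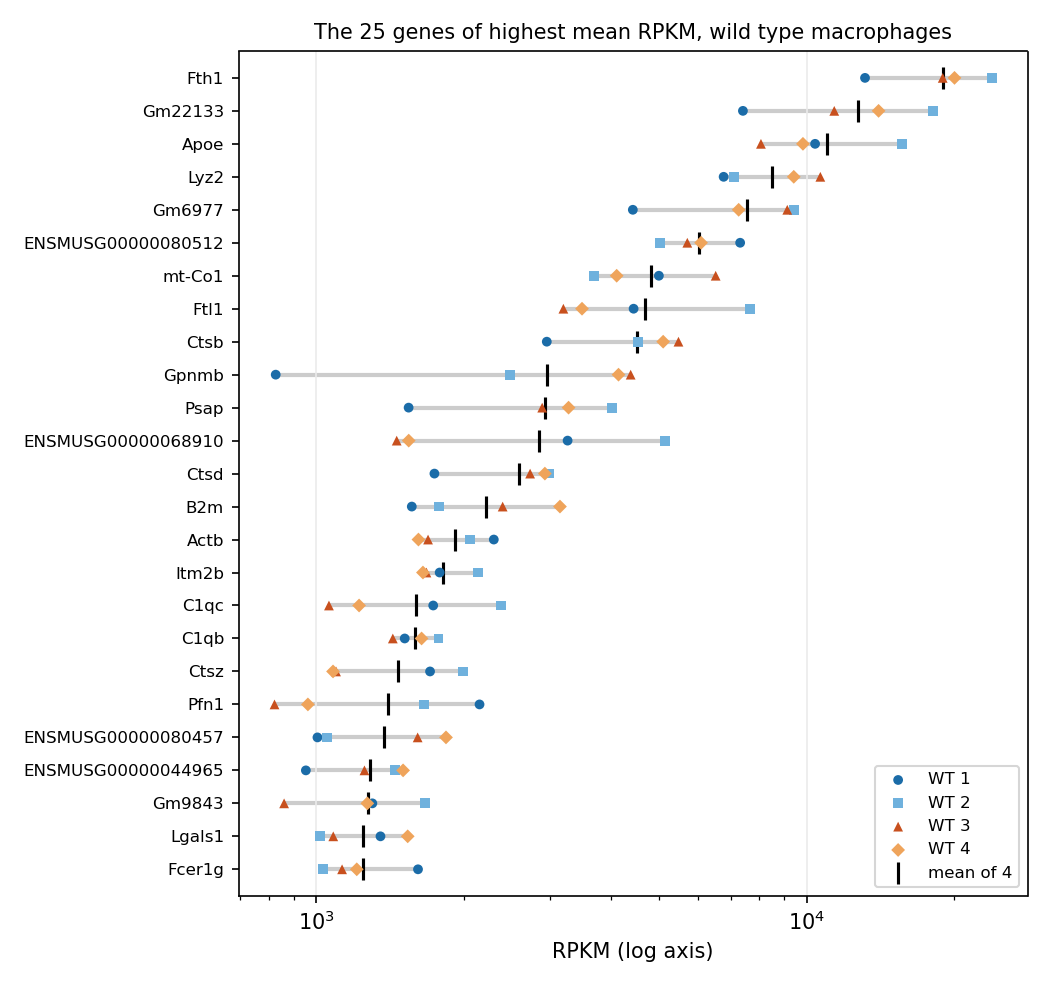
RPKM (log axis) of the 25 genes of highest mean RPKM, 1 row per gene, with a symbol per wild type library, a black tick at the mean and a grey line over the range. Fth1 leads at a mean of 18993 RPKM, and Gpnmb has the widest range, with 827 RPKM in WT 1 and 2484 to 4377 RPKM in the other libraries.

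Several of the highest RPKM values belong to very short features and rest on few counts for their rank. The ratio of count to RPKM was divided by that in WT 1 and then by the library's median over genes. It then lay between 0.999991 and 1.00001 for each of 6779 genes in WT 2, WT 3 and WT 4. So the lengths of genes relative to each other can be worked out. The implied lengths in bases take the summed gene counts as the total of a library. Whether the RPKM used that total was not tested, so they are approximate. Gm22133, ranked 2 with 7415, 18078, 11386 and 14021 RPKM, had an implied length of 126 bases and took rank 47 by share of counts. The unnamed ENSMUSG00000080512 ranked 6 with 7319, 5021, 5711 and 6091 RPKM, an implied length of 94.7 bases and rank 215 by share of counts. What these features are was not tested. At the other end, long genes take more counts than their RPKM rank tells. Lrp1, an endocytic receptor of the LDL receptor family, had an implied length of 22936 bases, rank 352 by RPKM and rank 14 by share of counts. Such lengths exceed those of 1 transcript for some genes, and whether the counter merged all exons of a gene is not given in the sources used here.

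By share of counts, which shows where the sequencing went and not which gene is higher per length, the 10 leading genes were Fth1, Psap, Apoe, Lyz2, Ctsb, Ctsd, mt-Co1, Gpnmb, Slc13a3 and Actb. Together they took 9.34, 11.98, 11.8 and 11.5% of all counts in WT 1 to 4, a mean of 11.1% ± 1.22 (SD, n = 4). Fth1 alone took 1.89% ± 0.433 and Psap 1.76% ± 0.613. Psap ranked 11 by RPKM and second by counts, since its implied length was 6025 bases against 999 bases for Fth1. The leading 100 genes took 26.5% ± 1.30 of counts and the leading 1000 took 57.8% ± 0.908. Per length the concentration was stronger, at 19.9% ± 2.68, 39.2% ± 2.53 and 69.0% ± 1.58 of summed RPKM for the leading 10, 100 and 1000 genes. The 33 genes of at least 1000 RPKM took 15.2% of counts and 28.5% of summed RPKM, while the 9742 genes under 1 RPKM on average took 0.900% of counts.

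Slc13a3, a sodium-coupled dicarboxylate transporter gene, entered those 10 through a single library. It had 2510, 526, 429.7 and 471 RPKM, and took 1.81, 0.375, 0.318 and 0.346% of counts in WT 1 to 4. WT 1 stood about 4.77 times above the highest other library.

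Among 20 functional gene lists, that of lysosomal enzymes took the largest mean share of the reads. The lists are read together with the plot of shares by function, and a gene may sit in several of them. Counts of expressed genes in these lists stand beside 54.6% of all genes. Their 605 different genes took 23.4%, 27.9%, 28.9% and 28.7% of counts in WT 1 to 4, a mean of 27.2% ± 2.56 (SD, n = 4). The 46 genes of the lysosomal enzyme list took 3.96, 6.56, 6.13 and 6.33% of counts in WT 1 to 4, a mean of 5.74 ± 1.20 percent (SD, n = 4), and 44 of the 46 were expressed. WT 1 stood below the other 3 libraries, which lay between 6.13% and 6.56%. The list also holds Psap and Grn, precursors of proteins that are not enzymes, which averaged 1.76% and 0.284% of counts. Psap alone took 0.916, 2.36, 1.77 and 1.98% in WT 1 to 4. The 18 genes of the lysosomal membrane protein list took 0.954, 1.60, 2.25 and 2.21%, with WT 3 and 4 above WT 1 and 2, and 17 of 18 were expressed. Much of that split lay in Gpnmb, at 0.216, 0.645, 1.18 and 1.10%, and Lgals3, at 0.0368, 0.117, 0.273 and 0.269% of counts. Of the 17 expressed genes 8 were higher and 2 lower in WT 3 and 4, beside 34.2% and 31.6% of expressed genes. With the lysozymes and the vacuolar proton pump the lysosomal lists hold 82 genes, which took 6.36%, 9.66%, 10.7% and 10.6% of counts in WT 1 to 4.

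The lysosomal enzyme list was topped by Ctsb, Psap, Ctsd and Ctsz, all given above, and by Grn, the precursor of the granulins, with 1218, 1434, 911 and 1051 RPKM. Grn was lower in WT 3 and 4 than in WT 1 and 2. Only Ctse and Ctsw, cathepsins of other cell types, were under 1 RPKM in every library, which held for 41.2% of all genes. The membrane protein list also holds Lgals3, a lectin that binds damaged lysosomes and is not itself a membrane protein. It had 1463 and 1456 RPKM in WT 3 and 4, against 203 and 654 RPKM in WT 1 and 2. Lamp1, the main lysosomal membrane glycoprotein, had 345, 481, 465 and 475 RPKM, and Cd68, the glycoprotein often used as a macrophage stain, had 266, 409, 440.3 and 525 RPKM. Lamp1 was steady in WT 2 to 4 and lower in WT 1. Lamp3 was the 1 member of that list under 1 RPKM in every library.

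All 16 vacuolar ATPase subunits, which acidify the lysosome, were expressed, at a median of 85.9 RPKM. Atp6v1f had 249.2, 236, 236 and 224 RPKM, one of the steadiest subunits, and Atp6v1b2 had 265 and 264 RPKM in WT 3 and 4, against 178 and 171 RPKM in WT 1 and 2. Of the 16 subunits 10 were higher in WT 3 and 4 and 0 were lower, beside 34.2% and 31.6% of expressed genes. The subunit of widest spread was Atp6v0d2, with 74.7 and 51.2 RPKM in WT 3 and 4, against 1.55 and 2.36 RPKM in WT 1 and 2. Lyz1, the second lysozyme gene, had 939.8, 891, 1425 and 1316 RPKM. It and Lyz2 are near-identical copies, so reads may be split or shared between them, and the Lyz1 level is uncertain.

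**Figure D2:**
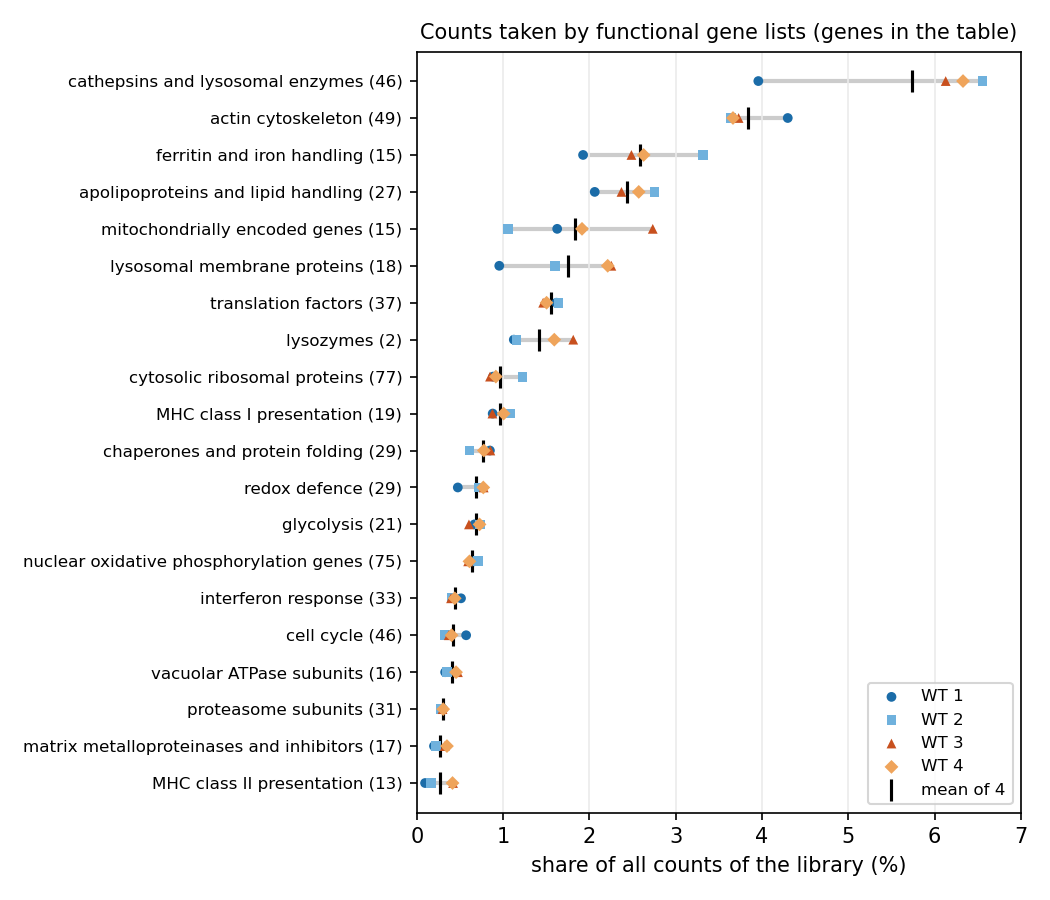
Share of all counts of a library (%) taken by each of 20 functional gene lists, with the number of list genes in the table in brackets, a symbol per wild type library, a black tick at the mean and a grey line over the range. The list of lysosomal enzymes, which also holds Psap and Grn, leads at a mean of 5.74%. WT 1 is lowest for that list at 3.96% and highest for the actin cytoskeleton at 4.30%, and MHC class II presentation takes the least.

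Iron handling owed nearly all its reads to ferritin. The 15 iron genes took 1.93, 3.31, 2.49 and 2.63% of counts in WT 1 to 4 and all were expressed, of which Fth1 averaged 1.89% and Ftl1 0.407% against the list's mean of 2.59%. Hmox1, the haem oxygenase that frees iron from haem, had 178, 346, 286 and 374 RPKM. Slc11a1, the phagosomal metal transporter NRAMP1, had 192, 250.4, 178 and 209 RPKM, and Slc48a1, a haem transporter, had 117, 197, 131 and 175 RPKM. WT 1 held the least Hmox1 and Slc48a1, and WT 2 the most Slc11a1 and Slc48a1.

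Lipid handling was led by Apoe in the same way. The 27 genes of that list took 2.06, 2.75, 2.37 and 2.57% of counts, of which Apoe averaged 1.40%, and 26 of 27 were expressed. Npc2, which carries cholesterol out of lysosomes, had 513, 729.7, 888 and 845 RPKM. Lpl, lipoprotein lipase, had 737 and 647 RPKM in WT 3 and 4, against 291 and 290.2 RPKM in WT 1 and 2. Anxa5, which binds phosphatidylserine, had 340.2, 324, 487 and 475 RPKM, and Anxa2, its relative, had 408, 374, 372 and 405 RPKM. Of the 26 expressed members 14 were higher in WT 3 and 4 and 1, Apoe, was lower, beside 34.2% and 31.6% of expressed genes. Apoc4 was under 1 RPKM in every library.

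The actin cytoskeleton, the machinery of phagocytosis and crawling, took the second largest mean share, 4.30, 3.64, 3.73 and 3.66% of counts in WT 1 to 4 over 49 genes, all expressed. In WT 1 it was the largest of the 20 lists, above the lysosomal enzymes, and it also led on average without the 10 genes of largest share, at 3.71% against 2.28%. Tmsb4x, the actin sequestering peptide thymosin beta 4, had 969, 665, 1394 and 1007 RPKM. Rac2, a small GTPase of blood cells, had 504 and 524 RPKM in WT 3 and 4, against 1052 and 871 RPKM in WT 1 and 2. Vim, the intermediate filament vimentin, ran the other way with 821 and 874 RPKM in WT 3 and 4, against 538 and 674 RPKM in WT 1 and 2. In this list 15 genes were higher and 15 lower in WT 3 and 4, near the shares of all expressed genes (34.2% and 31.6%).

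As counted, the translation machinery took less of the reads than the lysosome. The 37 translation factors took 1.62, 1.64, 1.46 and 1.503% of counts, and the 77 cytosolic ribosomal protein genes took 0.882, 1.22, 0.847 and 0.914%. Per length the ribosomal proteins took a mean of 2.29 ± 0.272% of summed RPKM. Eef2, the elongation factor that moves the ribosome, had 1260, 1501, 838 and 1010 RPKM, and Eef1a1, which brings in aminoacyl-tRNA, had 839.8, 944, 1100 and 1198 RPKM. Eef2 was lower and Eef1a1 higher in WT 3 and 4. Rack1, a scaffold on the small subunit, had 734, 1009, 630.1 and 682 RPKM. Among ribosomal proteins Rplp1, of the stalk, had 843, 1729, 525 and 687 RPKM, with WT 2 highest, and Rpl8 had 729.6, 1054, 619 and 671 RPKM. Levels of single ribosomal protein genes are uncertain, because reads that also match a processed copy may have been lost or shared. The share taken by their list carries the same uncertainty. The 58 genes with a named pseudogene had a median of 32.5 RPKM and the 19 genes without one had a median of 138 RPKM. Gapdh, a glycolytic enzyme with many processed copies that was picked after its value was seen, had only 4.36, 1.94, 1.04 and 1.35 RPKM. The part of multiple mapping in these levels was not tested. Over all genes, 95 of 8641 genes with at least 100 counts in every library had the same 4 counts as another gene.

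Mitochondrially encoded genes had the widest ratio of highest to lowest library among the lists that took over 1% of counts, though the lysosomal enzymes had the larger SD in percentage points. Their 15 members took 1.63, 1.06, 2.73 and 1.91% of counts in WT 1 to 4, lowest in WT 2 and highest in WT 3. mt-Co1, subunit 1 of cytochrome c oxidase, had 4997, 3683, 6524 and 4099 RPKM, and mt-Nd1, a subunit of complex I, had 936, 584, 1460 and 1124 RPKM. mt-Atp6, of the ATP synthase, had 909, 457, 1388 and 1081 RPKM. Of the 15 genes 14 were higher in WT 3 and 4, beside 34.2% of expressed genes, and mt-Co1 was the exception. The nuclear genes of the same respiratory complexes did not follow. Their 75 members took 0.656, 0.708, 0.593 and 0.608% of counts, and 16 were higher and 38 lower in WT 3 and 4, beside 34.2% and 31.6% of expressed genes. Cox8a, a small subunit of cytochrome c oxidase, had 505, 500.1, 285 and 300.2 RPKM, and Atp5b, the catalytic subunit of ATP synthase, had 344, 269, 293 and 305 RPKM. Atp5b overlapped between the pairs.

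All 21 glycolysis genes were expressed, at 0.665, 0.729, 0.603 and 0.725% of counts. Pkm, pyruvate kinase, stood far above the rest with 1045, 993, 1007 and 1254 RPKM, followed by Aldoa, an aldolase, with 277, 321, 213 and 270.3 RPKM. Hk3, the hexokinase of blood cells, had 131, 159.7, 120.4 and 125 RPKM. Pkm was highest in WT 4, and the other 2 genes in WT 2. Levels of glycolytic genes with processed copies, such as Gapdh given above, are uncertain. The share of glycolysis and the lead of Pkm may be uncertain for that reason too. Redox defence took 0.473, 0.717, 0.774 and 0.769% of counts, lowest in WT 1. Gpx1, glutathione peroxidase, had 328, 430.3, 283 and 429 RPKM, and Cyba, the p22 subunit of the NADPH oxidase, had 286, 395, 257 and 306 RPKM. Prdx1, a peroxiredoxin, had 572 and 424 RPKM in WT 3 and 4, against 84.4 and 195 RPKM in WT 1 and 2.

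MHC class I was expressed throughout, whereas MHC class II differed between libraries. All 19 class I genes were expressed, with 0.878, 1.08, 0.875 and 1.005% of counts. After B2m, H2-D1, a class I heavy chain, had 716, 1214, 692 and 892 RPKM. H2-K1, the other classical heavy chain, had 238, 343, 181 and 209 RPKM. Both heavy chains were highest in WT 2. Class II presentation took 0.419 and 0.412% of counts in WT 3 and 4, against 0.0941 and 0.159% in WT 1 and 2, and 9 of its 13 genes were expressed. Cd74, the invariant chain, had 259.6 and 301 RPKM in WT 3 and 4, against 20.2 and 48.02 RPKM in WT 1 and 2. H2-Aa, a class II alpha chain, had 132 and 145 RPKM in WT 3 and 4, against 2.86 and 13.02 RPKM in WT 1 and 2. H2-Ab1, its partner chain, had 68.2 and 85.9 RPKM in WT 3 and 4, against 2.91 and 23.9 RPKM in WT 1 and 2. The pairs did not overlap for any of these chains. Ctss, the protease that trims the invariant chain, had 871 and 774 RPKM in WT 3 and 4, against 243 and 383 RPKM in WT 1 and 2. Ifi30, a lysosomal thiol reductase, was not split this way, at 93.4, 117, 88.4 and 139 RPKM in WT 1 to 4. H2-Oa, H2-Ob and H2-Eb2 were under 1 RPKM in every library.

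Interferon response genes were expressed without stimulation. All 33 were at or above 1 RPKM on average, beside 54.6% of all genes. They took 0.510, 0.403, 0.395 and 0.438% of counts, highest in WT 1. Ifitm3, which blocks viral entry, had 689.8, 979, 746 and 1023 RPKM, and Bst2, the restriction factor tetherin, had 731, 893, 314 and 358 RPKM. Bst2 was lower in WT 3 and 4. Rtp4 had 106, 105, 129.8 and 116 RPKM, Oas3, an oligoadenylate synthetase, had 134, 93.8, 50.5 and 52.7 RPKM, and Isg15, a ubiquitin-like modifier, had 94.1, 52.9, 48.8 and 62.6 RPKM. Cell cycle genes took 0.570, 0.328, 0.368 and 0.402% of counts, again highest in WT 1, and all 46 were expressed. Tubb5, a beta tubulin, had 1215, 605, 496 and 606 RPKM, Pcna, the DNA polymerase clamp, had 168, 134, 239.5 and 301 RPKM, and Mcm6, a subunit of the replication helicase, had 35.3, 17.9, 44.2 and 42.9 RPKM. The proteasome was the steadiest of the 20 functional lists, with 0.303, 0.281, 0.297 and 0.304% of counts in WT 1 to 4 and all 31 subunits expressed. Chaperones took 0.845, 0.608, 0.851 and 0.775%, least in WT 2, led by Hsp90ab1, a cytosolic HSP90, with 577, 431, 462 and 484 RPKM and by Calr, the lectin chaperone calreticulin, with 585, 337, 441 and 452 RPKM.

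All 40 lineage transcription factors on the macrophage list were expressed, against 3 of 23 factors of other blood lineages and 54.6% of all genes. The median of the 40 was 21.1 RPKM, beside a median of 7.69 RPKM over the 11702 expressed genes. Both lists were chosen with earlier results of these data known, so these counts do not test the identity of the cells. Spi1, which encodes PU.1, was the highest, with 243 and 284 RPKM in WT 3 and 4, against 630.4 and 635 RPKM in WT 1 and 2, and ranked 103 of all genes. The C/EBP factors, which act with PU.1 in myeloid cells, were also high. Cebpb had 111 and 119 RPKM in WT 3 and 4, against 234 and 386 RPKM in WT 1 and 2. Cebpd had 48.7 and 48.1 RPKM in WT 3 and 4, against 208 and 253 RPKM in WT 1 and 2. Cebpa had 26.3, 77.9, 35.7 and 37.6 RPKM in WT 1 to 4, with WT 2 alone high.

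Irf5 and Irf8 were spread over a narrower band than Spi1 and the C/EBP factors, while Maf ranged as widely as Spi1. Irf5, an activator of inflammatory genes, had 94.9, 128, 84.6 and 85.8 RPKM, and Irf8, a partner of PU.1, had 67.3, 95.8, 68.8 and 79.8 RPKM. Maf had 136, 87.5, 59.6 and 51.5 RPKM. Maf and Irf5 were lower in WT 3 and 4, while the pairs overlapped for Irf8. The AP-1 genes Jund, Junb and Jun had means of 156 ± 69.3, 86.9 ± 14.02 and 42.3 ± 9.22 RPKM (SD, n = 4 each), all lower in WT 3 and 4, whereas Fos had 28.9 and 30.5 RPKM in WT 3 and 4, against 8.06 and 12.3 RPKM in WT 1 and 2. Atf3, a stress-induced factor, had 104, 97.6, 124 and 132 RPKM, and Nfe2l2, the oxidant sensor NRF2, had 123 and 113 RPKM in WT 3 and 4, against 57.9 and 66.8 RPKM in WT 1 and 2.

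The MiT factors that drive lysosomal genes were low by comparison in RPKM, which is divided by gene length. Tfe3, with an implied length of 24582 bases, ranked 5588 by RPKM and 855 by share of counts. Its mean share of 0.0204% stood above the 0.0133% of Cebpd. Tfeb ranked 6743 by RPKM and 3406 by share, while Tfec ranked 6213 and 7959. Tfe3 had 9.89, 9.44, 6.82 and 7.26 RPKM, Tfec had 5.28, 6.53, 8.84 and 7.04 RPKM, Tfeb had 5.64, 9.30, 4.64 and 4.02 RPKM and Mitf had 1.79, 1.72, 2.86 and 2.73 RPKM. Tfe3 and Tfeb were lower and Tfec and Mitf higher in WT 3 and 4. Nuclear receptors were also low in RPKM. Pparg, the fatty acid sensor, had 14.2 and 12.3 RPKM in WT 3 and 4, against 2.83 and 4.11 RPKM in WT 1 and 2. Nr1h3, the oxysterol receptor LXR alpha, had 3.69 and 3.84 RPKM in WT 3 and 4, against 2.05 and 2.07 RPKM in WT 1 and 2. By share of counts Nr1h3 ranked 5672, against 9004 by RPKM, and Pparg ranked 7393, against 5587 by RPKM. The list ended with Nr4a1 and Klf4, monocyte factors, at 2.14 ± 1.07 and 2.03 ± 0.700 RPKM (SD, n = 4 each). Of the 40 genes 13 were higher and 19 lower in WT 3 and 4, beside 34.2% and 31.6% of expressed genes.

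Factors of other lineages were near the detection limit with 1 clear exception. Batf3, a factor of conventional dendritic cells, had 8.16 and 11.01 RPKM in WT 3 and 4, against 34.01 and 27.9 RPKM in WT 1 and 2. Tal1, of stem and erythroid cells, had 1.20, 1.90, 3.28 and 2.67 RPKM, and Gfi1b, of megakaryocytes and erythroid cells, had 2.12, 1.28, 0.939 and 0.968 RPKM. Cebpe, a late granulocyte factor, averaged under 1 RPKM but reached 1.09 RPKM in WT 2. The other 19 of 23 were under 1 RPKM in every library, beside 41.2% of all genes, among them Pax5 and Ebf1 of B cells, Tcf7 and Gata3 of T cells, Gata1 and Klf1 of erythroid cells, and Myb and Meis1 of progenitors. Bcl11b and Eomes, factors of T and NK cells, had 0 counts in every library. Of 10 factors that mark tissue macrophages, 5 were expressed, near the share of all genes (54.6%). Irf7, of the interferon response, had 28.4, 27.4, 12.7 and 18.4 RPKM, Spic, of red pulp macrophages, had 4.48, 2.52, 3.06 and 2.09 RPKM, and Id3, of Kupffer cells, had 5.14, 3.001, 1.86 and 2.14 RPKM. Gata6 and Rarb, of peritoneal macrophages, and Hes1, Id1 and Irf4 were under 1 RPKM in every library.

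**Figure D3:**
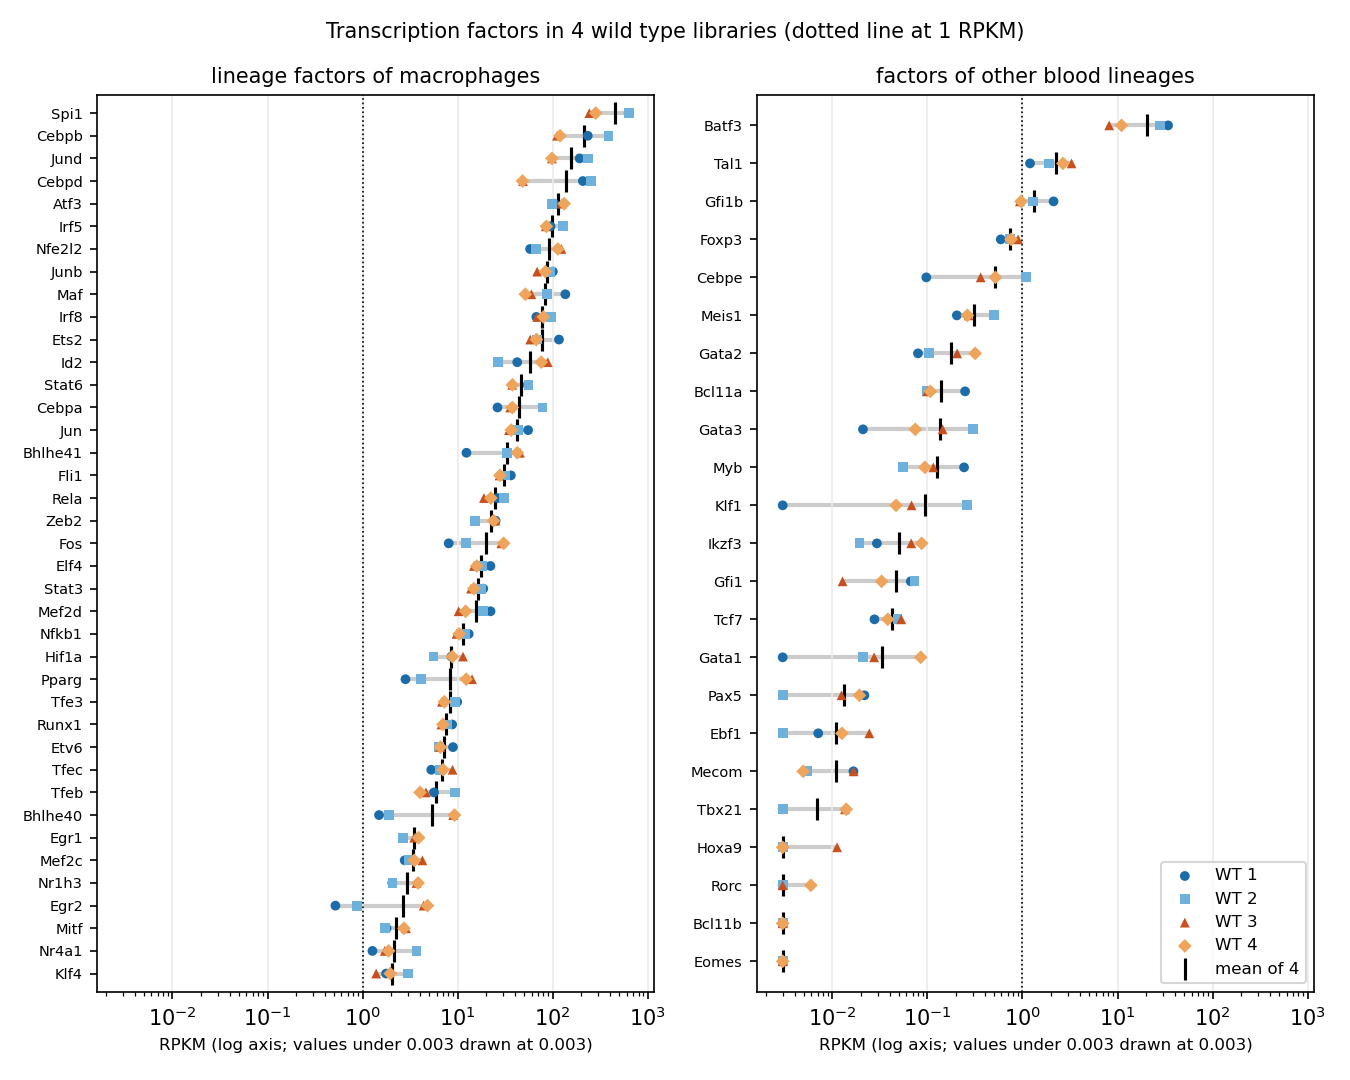
RPKM (log axis) of 39 of the 40 lineage transcription factors of macrophages (left) and 23 factors of other blood lineages (right) in WT 1 to 4, with a black tick at the mean, a grey line over the range and a dotted line at 1 RPKM. All 39 macrophage factors drawn have a mean above the line, and of the others only Batf3, Tal1 and Gfi1b do.

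Receptors for growth factors were led by those of the colony stimulating factors. Of 20 in the list 11 were expressed, at the share of all genes (54.6%). Csf2ra, the alpha chain for GM-CSF, had 161, 268, 203 and 215 RPKM, a mean of 212 ± 44.1 (SD, n = 4). That exceeded the mean RPKM of Csf1r by less than the SD of either gene. The order holds per length only. Csf1r, with an implied length of 13320 bases, took 0.241% of counts on average, out of 0.392% for all 20 genes of the list. The shared beta chain Csf2rb had 18.5, 37.4, 36.99 and 42.8 RPKM, and its near-identical copy Csf2rb2 had 3.55, 10.3, 19.5 and 19.5 RPKM, so reads may be shared between them. WT 1 held the least of all 4 genes. Csf3r, the G-CSF receptor, had 9.04, 8.97, 6.92 and 6.88 RPKM. Tgfbr2 and Tgfbr1, the chains of the TGF-beta receptor, had means of 20.4 ± 5.44 and 6.43 ± 4.26 RPKM (SD, n = 4 each). Kit and Flt3, receptors of progenitors, averaged 0.557 ± 0.421 and 0.0350 ± 0.00738 RPKM. Kit was above 1 RPKM in WT 3 alone, at 1.04 RPKM.

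Among Fc receptors and their adaptors, 9 of 11 were expressed, at a median of 66.1 RPKM, beside 54.6% and 1.53 RPKM over all genes. Fcer1g and Tyrobp are given above. Fcrls, an Fc receptor-like scavenger molecule, had 724 and 708 RPKM in WT 3 and 4, against 1493 and 966 RPKM in WT 1 and 2. Fcgr3, the low affinity IgG receptor CD16, had 58.1, 129.6, 156 and 162 RPKM, and Fcgr4, which binds IgG2 complexes, had 143, 70.5, 86.9 and 88.2 RPKM. Fcgr3 was lowest and Fcgr4 highest in WT 1. Fcgr2b, the inhibitory receptor, had 7.86, 17.1, 23.2 and 18.01 RPKM, and Fcgrt, the neonatal Fc receptor, had 66.2, 104, 41.9 and 52.6 RPKM. The IgE receptors Fcer1a and Fcer2a, of mast cells and B cells, were under 1 RPKM in every library, and Fcer2a had 0 counts in all 4.

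Pattern receptors were mostly expressed, and several of them split between the library pairs. Of 30 in the list 26 were expressed, beside 54.6% of all genes. Unc93b1, which carries nucleic acid sensing Toll-like receptors to endosomes, had 631, 898, 404 and 441 RPKM, and Cd14, the lipopolysaccharide co-receptor, had 168, 213, 251 and 307 RPKM. Among Toll-like receptors Tlr9 for DNA had 74.2, 52.04, 53.95 and 58.2 RPKM, Tlr1 had 69.5, 27.99, 66.6 and 54.2 RPKM and Tlr2, both for bacterial lipopeptides, had 36.8, 24.1, 36.2 and 29.2 RPKM. The pairs overlapped for those 3 receptors. Tlr13, a sensor of bacterial ribosomal RNA, had 63.01 and 53.4 RPKM in WT 3 and 4, against 8.48 and 15.2 RPKM in WT 1 and 2. Tlr4, the lipopolysaccharide receptor, had 20.5 and 12.5 RPKM in WT 3 and 4, against 5.001 and 5.28 RPKM in WT 1 and 2. Tlr7 and Tlr8, for single-stranded RNA, and Tlr3, for double-stranded RNA, were also higher in WT 3 and 4, at means over the 4 libraries of 11.3 ± 8.35, 8.40 ± 6.07 and 2.12 ± 0.965 RPKM (SD, n = 4 each).

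The same split was seen for the 5 Clec genes, C-type lectins, of the pattern receptor list. Clec7a, the beta-glucan receptor dectin-1, had 70.5 and 44.3 RPKM in WT 3 and 4, against 2.04 and 6.24 RPKM in WT 1 and 2. Clec4d had 233 and 209 RPKM in WT 3 and 4, against 49.2 and 113 RPKM in WT 1 and 2. Clec4n, dectin-2, and Clec4e, mincle, had means of 9.90 ± 6.90 and 7.27 ± 5.37 RPKM and were split the same way, as was Clec5a at 2.55 ± 1.82 RPKM (SD, n = 4 each). The signalling adaptors Myd88 and Ticam1 were lower there, with Myd88 at 48.1 and 54.3 RPKM in WT 3 and 4, against 75.4 and 68.3 RPKM in WT 1 and 2. In all 15 of the 26 expressed pattern receptor genes were higher and 4 lower in WT 3 and 4, beside 34.2% and 31.6% of expressed genes. Nod2, Tlr5, Tlr11 and Tlr12 were under 1 RPKM in every library, and Nlrp3, the inflammasome sensor, had 1.70, 4.23, 3.34 and 3.69 RPKM.

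Scavenger and efferocytosis receptors included some of the largest differences between libraries among abundant genes. Of 23 in the list 18 were expressed, beside 54.6% of all genes. Stab1, a receptor that clears modified proteins, had 312, 399, 204 and 259.5 RPKM, and Gas6, the bridge between dead cells and the TAM kinases, had 243, 415, 208 and 257 RPKM. Both were highest in WT 2. Cd36, which takes up oxidized lipoproteins, had 365 and 341 RPKM in WT 3 and 4, against 98.2 and 80.8 RPKM in WT 1 and 2. Marco, a class A scavenger receptor, ran the other way, with 78.8 and 60.7 RPKM in WT 3 and 4, against 342 and 253 RPKM in WT 1 and 2. Msr1, the founding class A receptor, had 54.2 and 52.4 RPKM in WT 3 and 4, against 16.4 and 15.4 RPKM in WT 1 and 2. So the 2 class A receptors were split in opposite directions. Mfge8, which bridges phosphatidylserine to integrins, had 122 and 133 RPKM in WT 3 and 4, against 13.1 and 46.7 RPKM in WT 1 and 2. Of the TAM kinases Mertk had 14.3, 15.8, 21.2 and 19.002 RPKM, Axl had 4.45, 15.4, 11.6 and 15.04 RPKM and Tyro3 was under 1 RPKM in every library, as were Stab2, Trem1, Olr1 and Havcr1.

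Of 18 complement receptors and leukocyte integrins 16 were expressed, beside 54.6% of all genes. Their median was 9.99 RPKM, beside 1.53 RPKM over all genes and 7.69 RPKM over expressed genes. Itgb2, the beta 2 chain CD18, had 539, 314, 306 and 376 RPKM. Its alpha partners were lower in RPKM and differed among themselves. Itgam, with an implied length of 24720 bases, ranked 770 by RPKM and 37 by share of counts. Itgal, CD11a, had 13.4 and 12.6 RPKM in WT 3 and 4, against 58.2 and 21.8 RPKM in WT 1 and 2. Itgax, CD11c, had 8.04 and 30.6 RPKM in WT 3 and 4, against 0.298 and 1.58 RPKM in WT 1 and 2, so that WT 4 stood far above WT 3. The anaphylatoxin receptors C3ar1 and C5ar1 had 250.3, 240.2, 396 and 389 RPKM and 190.3, 194, 215 and 275 RPKM in WT 1 to 4. Cr2, the complement receptor of B cells, averaged 0.00329 RPKM.

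Chemokine receptors were the sparsest receptor list. Of 19 listed genes 8 were expressed, below the 54.6% of all genes, and none reached 100 RPKM. Cxcr4, the CXCL12 receptor, had 64.9 and 62.6 RPKM in WT 3 and 4, against 17.9 and 27.3 RPKM in WT 1 and 2. Ccr2, of inflammatory monocytes, had 0.563, 2.05, 3.83 and 3.11 RPKM, Cx3cr1, the fractalkine receptor, had 0.678, 3.39, 2.23 and 2.59 RPKM, and Ccr1 had 0.178, 1.26, 3.40 and 3.65 RPKM. WT 1 was the lowest for each of these 4 genes.

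Cytokine receptors were led by those for TNF and IL-10. Of 30 in the list 21 were expressed (70%), beside 54.6% of all genes. Tnfrsf1b, TNF receptor 2, had 152, 285, 174 and 178 RPKM, and Tnfrsf1a, TNF receptor 1, had 76.6, 72.8, 43.9 and 44.4 RPKM. Il10rb and Il10ra, the IL-10 receptor chains, had means of 83.3 ± 24.9 and 46.6 ± 4.86 RPKM (SD, n = 4 each). Ifngr1 and Ifngr2, for interferon gamma, had means of 45.3 ± 8.11 and 25.1 ± 5.20 RPKM. Ifnar1, a chain of the type I interferon receptor, had 8.54, 8.30, 8.57 and 8.69 RPKM, the narrowest spread in the list. Il4ra had 28.1 and 31.4 RPKM in WT 3 and 4, against 86.2 and 69.9 RPKM in WT 1 and 2, whereas Il7r had 53.2 and 40.5 RPKM in WT 3 and 4, against 1.21 and 5.43 RPKM in WT 1 and 2. The IL-1 receptor chains Il1r1, Il1r2 and Il1rap, and Il1rl1, Il2rb and Il18r1, averaged under 1 RPKM.

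Among receptors for nucleotides, lipids and formyl peptides 25 of 30 were expressed, beside 54.6% of all genes. P2ry6, for UDP, had 127, 222, 87.3 and 109 RPKM and was highest in WT 2. Fpr1, for formyl peptides, had 107, 89.3, 72.6 and 76.01 RPKM, Ptger1, for prostaglandin E, had 114, 108, 56.1 and 64.6 RPKM and S1pr2, for sphingosine phosphate, had 76.9, 63.9, 61.1 and 62.9 RPKM, all lower in WT 3 and 4. Ptafr, for platelet activating factor, had 58.5 and 54.3 RPKM in WT 3 and 4, against 23.3 and 34.95 RPKM in WT 1 and 2. P2rx7, the ATP-gated channel, was steady at 8.43, 9.42, 8.92 and 8.77 RPKM. Gpr84, for medium-chain fatty acids, was not, at 1.04 and 1.37 RPKM in WT 3 and 4, against 20.8 and 4.98 RPKM in WT 1 and 2.

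**Figure D4:**
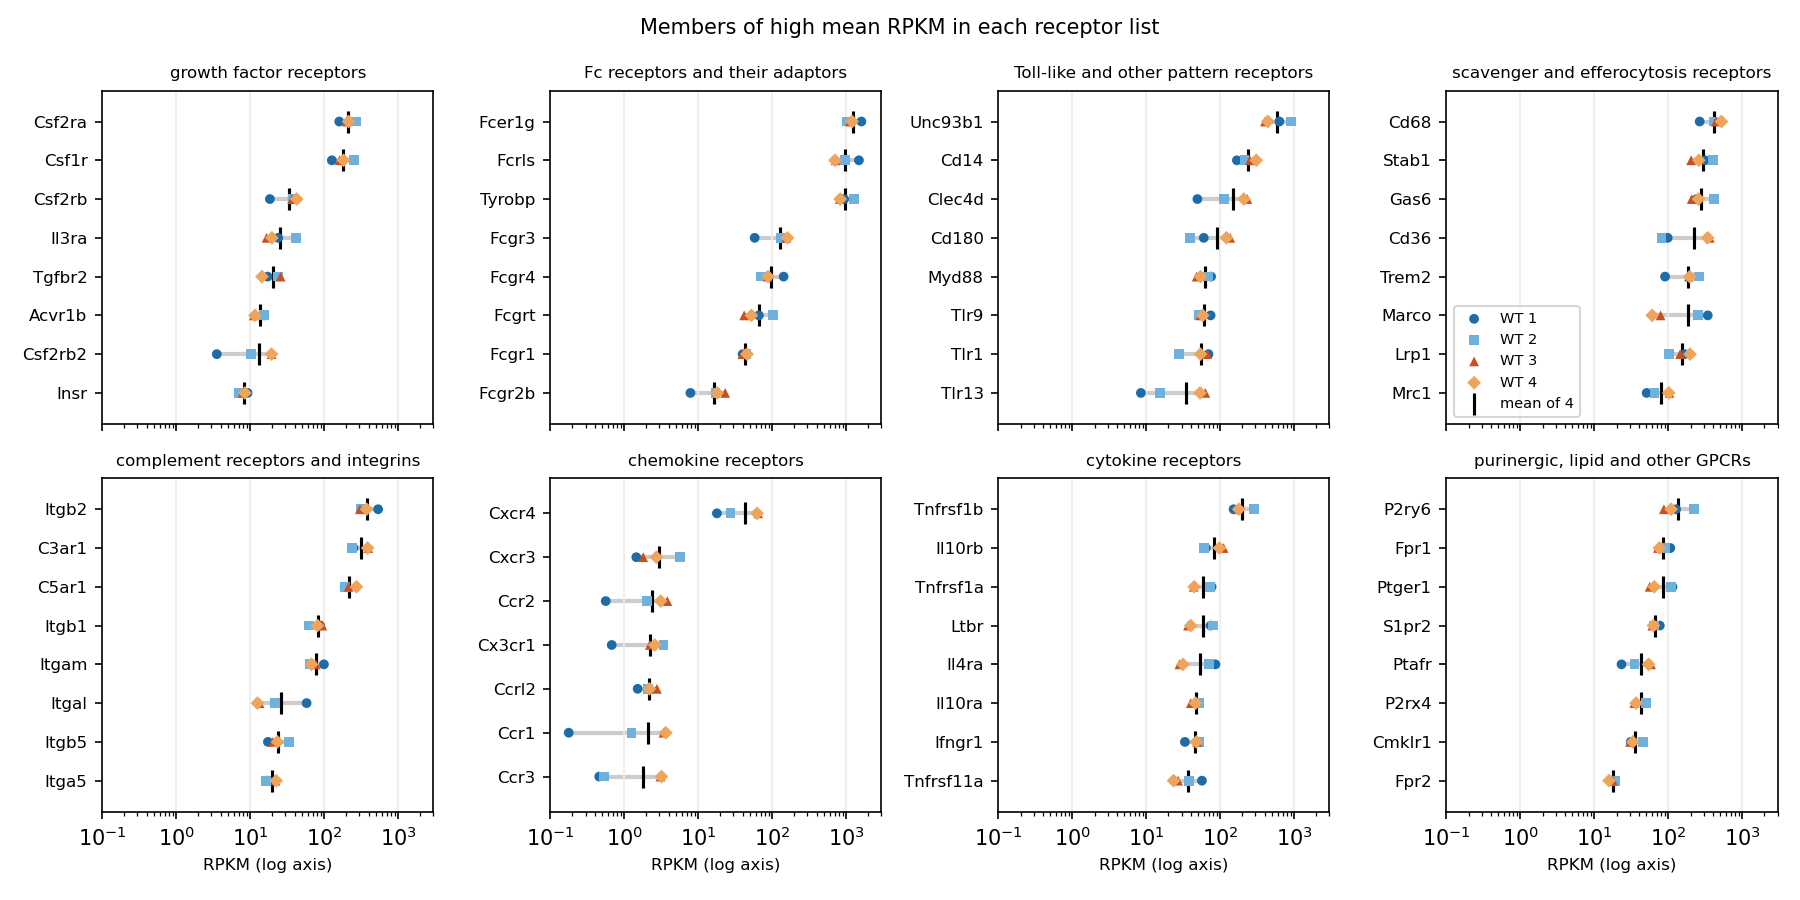
RPKM (log axis) of the 8 members of highest mean RPKM in each of 8 receptor lists (7 drawn for chemokine receptors), with a symbol per wild type library, a black tick at the mean and a grey line over the range. Adaptors of Fc receptors lead at up to 1245 RPKM on average, chemokine receptors stay under 50 RPKM on average, and Marco, Cd36, Tlr13 and Ccr1 show wide gaps between libraries.

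Secreted signals were a mixture of abundant and absent genes. Of 26 chemokine ligands 17 were expressed. Ccl3, which attracts monocytes, had 241, 142, 135 and 169 RPKM, and Ccl4, its neighbour in function, had 103, 49.9, 58.4 and 81.2 RPKM, both highest in WT 1. Ccl6 and Ccl9, chemokines made by mouse macrophages, had 123, 65.1, 156 and 182 RPKM and 46.7, 52.5, 159 and 167 RPKM, both higher in WT 3 and 4. Ccl2, the main monocyte attractant, had 78.2, 25.2, 91.2 and 90.5 RPKM with WT 2 low. Of 31 cytokines and growth factors 19 were expressed. These shares, 65.4% of chemokine ligands and 61.3% of cytokines and growth factors, were near the 54.6% of all genes. Spp1, osteopontin, had 545 and 546 RPKM in WT 3 and 4, against 106 and 90.9 RPKM in WT 1 and 2. Tgfb1 had 248, 234, 159.9 and 211 RPKM, Mif had 243, 229.6, 77.04 and 120.1 RPKM and Vegfb, a growth factor of the VEGF family, had 50.4, 70.97, 29.8 and 29.8 RPKM. All 3 were lower in WT 3 and 4. Csf2, Csf3, Ifng, Ifnb1, Il23a and Lif were under 1 RPKM in every library.

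Of 14 complement components 7 were expressed, near the share of all genes (54.6%). Cfp, properdin, had 429, 441, 222 and 218 RPKM and C3 had 99.97, 103, 54.97 and 62.03 RPKM, both lower in WT 3 and 4. C6 and Cfd had 0 counts in every library. Of 17 metalloproteinases and inhibitors 12 were expressed. Timp2, an inhibitor, had 118, 235, 151 and 169 RPKM. Mmp12, macrophage elastase, had 113 and 117 RPKM in WT 3 and 4, against 1.95 and 6.05 RPKM in WT 1 and 2. Adam8 had 78.3 and 100.4 RPKM in WT 3 and 4, against 26.4 and 47.4 RPKM in WT 1 and 2. Adam15 ran the other way, at 24.2 and 32.1 RPKM in WT 3 and 4, against 51.3 and 53.8 RPKM in WT 1 and 2.

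Of 15 classical activation genes 10 were expressed, at a median of 2.35 RPKM, beside 54.6% and 1.53 RPKM over all genes. Tnf had 50.6, 26.4, 38.3 and 36.8 RPKM, Fpr2 had 17.7, 19.4, 17.9 and 15.8 RPKM, Socs3, a brake on cytokine signalling, had 31.5, 18.7, 5.84 and 7.78 RPKM, and Irf1 had 13.1, 10.3, 6.98 and 8.31 RPKM. Tnf and Socs3 were highest in WT 1. Il6, Il12b and Cxcl9, made by stimulated macrophages, were under 1 RPKM in every library. Nos2, inducible nitric oxide synthase, which falls outside the rule for named genes, averaged 1.38 ± 0.506 RPKM (SD, n = 4). Of 19 alternative activation genes 11 were expressed, at a median of 1.47 RPKM, close to the values over all genes. After Mrc1 and Il4ra, Tgm2, a transglutaminase, had 21.4, 39.6, 36.8 and 33.7 RPKM and Myc had 20.97, 16.3, 14.7 and 16.1 RPKM. Arg1, arginase 1, and Ccl17 were under 1 RPKM in every library.

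Markers of other cells ranged between lists that were nearly absent and lists expressed at or above the share of all genes (54.6%). Of 15 T and NK cell markers 2 were expressed, Il7r and Cd4, and Cd4 had 6.28, 6.92, 20.99 and 18.3 RPKM. Cd3d, Cd8a, Gzmb and Prf1, which define T and cytotoxic cells, had 0 counts in every library. Of 10 B cell markers 1 was expressed, Cd79b, with 34.5, 26.6, 20.2 and 17.9 RPKM, while Ms4a1 and Pax5 were under 0.2 RPKM in every library. The neutrophil list had 8 of 16 expressed at a summed 19.5, 40.7, 42.2 and 42.1 RPKM in WT 1 to 4, led by S100a8, a calcium binding alarmin, with 2.18, 8.18, 13.2 and 11.7 RPKM, and Ly6g, the neutrophil surface marker, averaged 0 RPKM. Of 10 monocyte markers 7 were expressed, at a median of 2.19 RPKM. Spn, the sialophorin CD43, had 47.8, 41.1, 46.2 and 52.98 RPKM, and Ly6c2 had 0.456, 3.996, 2.01 and 2.52 RPKM.

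Fibroblast markers were low except Lox. The counts of expressed markers that follow stand beside 54.6% of all genes. Of 20 genes 4 were expressed, and Lox, lysyl oxidase, had 154, 172, 93.98 and 91.9 RPKM while Acta2, smooth muscle actin, had 1.76, 2.73, 1.79 and 4.07 RPKM and Col1a1, Col3a1 and Pdgfra were under 1 RPKM in every library. The list summed to 159, 178, 100.4 and 109.8 RPKM in WT 1 to 4, nearly all of it Lox. Of 11 dendritic cell markers 4 were expressed, Bst2, Batf3, Itgax and Fscn1, and Flt3, Zbtb46 and Clec9a were under 0.2 RPKM in every library. Of 10 osteoclast markers 7 were expressed, at a median of 7.94 RPKM and a summed 157, 99.5, 169.6 and 146 RPKM in WT 1 to 4. Acp5, the tartrate resistant phosphatase, had 17.3 and 20.2 RPKM in WT 3 and 4, against 70.7 and 31.3 RPKM in WT 1 and 2, while Ctsk, cathepsin K, had 32.8 and 32.9 RPKM in WT 3 and 4, against 1.51 and 8.79 RPKM in WT 1 and 2. Dcstamp, Ocstamp and Oscar, needed for or marking osteoclast fusion, were under 0.2 RPKM in every library. Fabp4, a fatty acid binding protein shared by adipocytes and macrophages, had 203 and 173 RPKM in WT 3 and 4, against 27.4 and 46.9 RPKM in WT 1 and 2, whereas Adipoq and Plin1 of adipocytes were under 0.2 RPKM. The remaining lists were sparse, with 1 of 9 markers of mast cells, basophils and eosinophils expressed, 5 of 13 of erythroid cells and megakaryocytes, 2 of 12 of stem and progenitor cells and 4 of 12 of endothelial cells and adipocytes. Hba-a1, the alpha globin gene, averaged 0.159 ± 0.109 RPKM (SD, n = 4).

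Genes known from tissue macrophages were partly present. The expressed share ran from 22.2% of the peritoneal list to 77.8% of the Kupffer cell list, beside 54.6% of all genes. Of 9 Kupffer cell genes 7 were expressed. Cd5l, the secreted apoptosis inhibitor AIM, had 314, 403, 264 and 328 RPKM, and Folr2, a folate receptor, had 103, 48.5, 146 and 215 RPKM. Cdh5 and Clec1b were under 1 RPKM in every library, so the list was split between high and low genes. Of 10 microglia genes 7 were expressed. After Fcrls, Tmem119 had 7.15, 11.97, 5.63 and 7.07 RPKM, but Siglech, Gpr34 and Slc2a5 were under 0.2 RPKM in every library. Of 9 alveolar macrophage genes 4 were expressed, and of 9 peritoneal macrophage genes 2 were, neither above 2 RPKM in any library. Genes of other organs gave the background. Of 12 genes 1 was expressed, Mbp, of myelin, at 1.03 ± 0.164 RPKM, and the other 11 were under 0.2 RPKM in every library.

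The 4 libraries differed more than a single average shows. Of 11702 expressed genes 4388 (37.5%) differed at least 2-fold between the highest and lowest library, and 230 differed at least 10-fold. Leaving out WT 2 brought the first count to 2552, and leaving out any other library moved it less. The median SD of log2(RPKM + 0.1) over the 4 libraries was 0.37. Among the 5001 genes of at least 10 RPKM, the widest spreads belonged to the mitochondrial tRNA genes mt-Tc and mt-Ta, with 0 counts in at least 1 library, and to Igkc, the immunoglobulin kappa constant region, with 168 and 124 RPKM in WT 3 and 4, against 1.68 and 2.69 RPKM in WT 1 and 2. The B cell markers beside it summed to 21.3 and 18.9 RPKM in WT 3 and 4, against 35.2 and 27.1 RPKM in WT 1 and 2, nearly all of it Cd79b. Their part in the Igkc level was not tested. Mmp12, Atp6v0d2, H2-Aa and Itgax, given above, were also among the 10 widest, as was Dio2, the deiodinase that activates thyroid hormone, with 29.6 and 16.7 RPKM in WT 3 and 4, against 0.528 and 0.980 RPKM in WT 1 and 2. In the opposite direction Saa3, an acute phase apolipoprotein picked after its value was seen, had 33.5 and 47.8 RPKM in WT 3 and 4, against 792 and 208 RPKM in WT 1 and 2. All of the 10 widest genes were higher in WT 3 and 4. Igkc rested on 9 and 11 counts in WT 1 and WT 2, and Gm12901 on 3 counts in WT 1. The dendritic cell markers came to a summed 333 and 404 RPKM in WT 3 and 4, against 768 and 925 RPKM in WT 1 and 2, most of it Bst2, but Itgax of the same list was higher in WT 3 and 4. The part of culture, sex, depth or cell make-up in these splits was not tested.

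**Figure D5:**
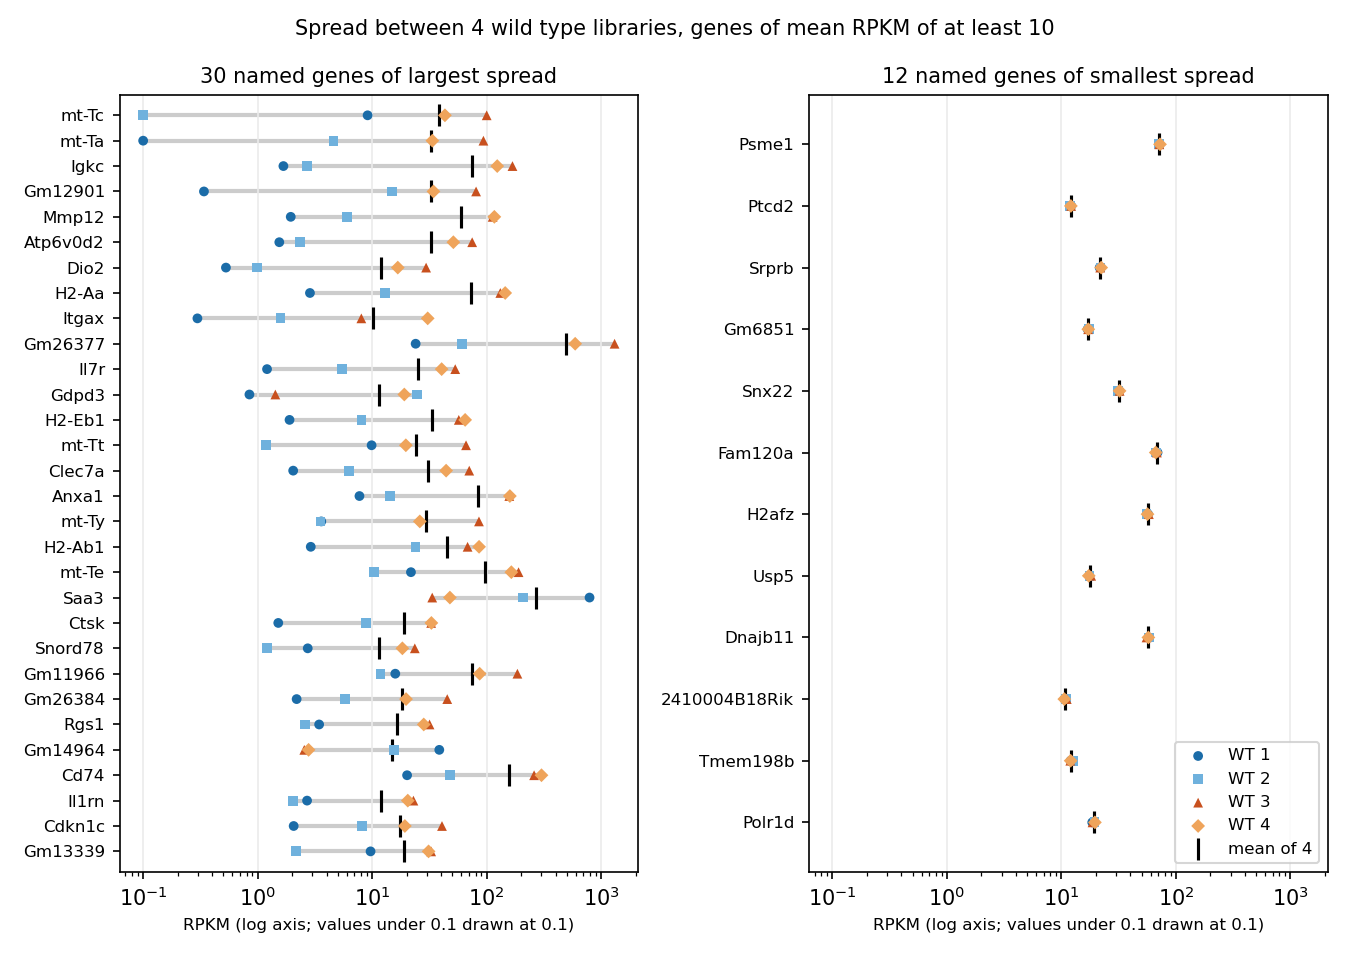
RPKM (log axis) in WT 1 to 4 of the 30 symbol-bearing genes with the largest (left) and the 12 with the smallest (right) SD of log2(RPKM + 0.1) among genes of mean RPKM of at least 10, with a black tick at the mean and a grey line over the range. On the left WT 3 and WT 4 lie above WT 1 and WT 2 for most genes and below them for Saa3 and Gm14964, and on the right the 4 symbols coincide.

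At the other end, some genes hardly varied. Psme1, an activator subunit of the proteasome, had 70.9, 71.2, 71.5 and 72.5 RPKM in WT 1 to 4, the narrowest spread of the 5001 genes. Ptcd2, a mitochondrial RNA-binding protein, had 12.2, 11.9, 12.2 and 12.1 RPKM, Srprb, a subunit of the signal recognition particle receptor, had 21.6, 21.9, 21.8 and 22.2 RPKM, and Fam120a had 68.99, 66.8, 68.2 and 66.5 RPKM. Their highest and lowest libraries lay within 5% of each other. Of 15 genes often used as references all were expressed, but few were as steady. Actb and B2m are given above, and B2m was 2-fold higher in WT 4 than in WT 1. Sdha, a subunit of succinate dehydrogenase, had 112, 103, 109 and 116 RPKM, and Gusb, beta-glucuronidase, had 92.5, 74.9, 104 and 103 RPKM. Rplp0, a ribosomal stalk protein, had 369.7 and 431 RPKM in WT 3 and 4, against 552 and 744 RPKM in WT 1 and 2.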

How the data were processed

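Per the submitters' processing notes, reads were handled with CASAVA 1.8.2 and Bowtie 0.12.7 on mm9. How reads were assigned to genes, whether strand was used and what became of reads with several matches is not given in the sources used here. The authors deposited for each Ensembl gene and library a read count, not normalized, and an RPKM value. Both were used as deposited, for the 4 wild type mRNA libraries only, whose total counts ranged between 11192104 and 24681273. Means, SDs, ranks and shares of counts were computed with Python 3.11.15, numpy 2.4.6 and pandas 2.3.3, figures were drawn with matplotlib 3.10.9, and exact binomial (Clopper-Pearson) intervals came from scipy 1.17.1. R 4.3.3 with edgeR 4.0.16 gave TMM factors for 1 alternative scaling. Logs were taken as log2(RPKM + 0.1). The scripts were tested on simulated data. No contrast between genotypes or sets of libraries was tested, and single libraries were checked with Dixon's outlier test.

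The text draws its named genes from the 25 genes of highest mean RPKM, the 10 of largest share of counts, the 5 marker genes, the 5 highest members of each list with those under 1 RPKM in every library, any lineage factor or receptor, and the 10 genes of widest and of narrowest spread among those of at least 10 RPKM. Some of the 25 highest that have no symbol appear only in their plot. Exceptions are marked where they stand. The members and lists were chosen with earlier results of these data known. Promoters, names and biotypes came from RefSeq (GRCm38.p6), matched by symbol. Some list members are counted but not reported by name here.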

Additional observations from a re-analysis of the deposited data

Results flagged for a closer look

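Of 47 sets of 4 library values tested for a library far from the others, 3 passed Dixon's 95% critical value, where chance passes about 1 in 20, and WT 1 was the library apart in all 3. Slc13a3, the dicarboxylate transporter gene, had 2510 RPKM in WT 1, against 429.7 to 526 RPKM in the other libraries. The lysosomal enzyme list, which also holds Psap and Grn, took 3.96% of counts in WT 1, against 6.13% to 6.56% in the other libraries. The actin cytoskeleton took 4.30% of counts in WT 1, against 3.64% to 3.73% in the other libraries.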

How the results depend on the processing

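Of the alternatives tried, 113 values that answer a description kept within the spread between libraries, or within 1.5 times for counts, 20 moved beyond it. The order of the functional lists did change. Without the 10 genes of largest share, lysosomal enzymes took 2.28%, lysosomal membrane proteins 1.09%, ferritin and iron 0.788%, lysozymes 0.190%, mitochondrially encoded genes 1.10% and lipid handling 1.18% of counts, and the actin cytoskeleton led with 3.71%. As shares of summed RPKM, lysosomal enzymes took 4.45%, ferritin and iron 5.97%, lysozymes 2.36%, actin 2.86%, ribosomal proteins 2.29%, mitochondrially encoded genes 3.15% and lipid handling 3.59%, so that ferritin stood above the lysosomal enzymes per length. The leading 10, 100 and 1000 genes took 19.9%, 39.2% and 69.0% on that scale, and with WT 1 and WT 2 alone the leading 1000 took 58.7% of counts. Genes of at least 2-fold range numbered 8201 with no filter on low values and 1670 at a mean of at least 10 RPKM. They numbered 2552 to 4117 when 1 library was left out, with the lowest count without WT 2. Of the 25 highest genes, 23 to 25 were shared when 1 library was left out, 21 with WT 1 and WT 2 alone and 20 with WT 3 and WT 4 alone. No paired analysis was possible because only 1 group of samples is described. Depth limits genes near 0, where 3 counts stand for up to 0.268 CPM, and levels of short genes and of genes with near-identical copies are uncertain.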
